A study of Mus musculus with 8 samples.

Results

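The genes described here are 38 genes of protein secretion, endoplasmic reticulum (ER) folding and the ATF4 amino acid response, taken by symbol from a table of 19460 genes. The list was drawn up by pathway with earlier results of these data known. They were measured by RNA sequencing in cultured stromal cells of mouse bone marrow, the plastic-adherent cells of marrow, some of which can become bone-forming osteoblasts. Wild-type cells (4 libraries) were compared with Lgr6-null cells (4 libraries), which are homozygous for Lgr6-GFP-ires-CreERT2, a fluorescent reporter and tamoxifen-inducible recombinase placed at Lgr6. Both groups are on the C57BL/6 background, and all 8 cultures had 10 days in osteogenic medium with β-glycerophosphate at 4 mM, ascorbic acid at 50 µg/mL and fetal bovine serum at 10%. The labels name no tamoxifen and give neither the age nor the sex of the mice. Nothing in them says whether replicate libraries stand for separate mice or separate dishes, so every p-value measures the spread between these libraries, which may be technical.

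Osteoblasts secrete large amounts of type I procollagen, which enters the ER through the translocon, is folded there by chaperones and leaves at ER exit sites in COPII-coated carriers. When unfolded protein builds up, the sensors IRE1, ATF6 and PERK raise chaperones through XBP1, ATF6 and ATF4, the unfolded protein response (UPR); ATF4 also raises amino acid synthesis and is known in mice to be needed for collagen production by osteoblasts. CREB3L1 and CREB3L2 are related transcription factors anchored in the ER membrane that are released by cleavage and, in mice, act on collagen and COPII genes in osteoblasts and chondrocytes respectively.

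The libraries held 7629968 to 21135173 reads in genes, and no member tested had fewer than 49 reads in a library. Lgr6 (ENSMUSG00000042793, chromosome 1) was at 1287 ± 303 normalized counts in wild-type and at 76.2 ± 19.2 in Lgr6-null (SD, n = 4 each), 5.92% of the wild-type mean, with no overlap between the genotypes (two-sided exact permutation p = 0.0286, the smallest that 4 against 4 libraries allow). Other cell types moved with genotype. The summed level of 18 macrophage and monocyte markers was 295298 to 351254 in wild-type and 438024 to 656370 in Lgr6-null, with 12 of 18 called higher and 0 lower. That of 15 osteoblast markers was 1806330 to 2355170 in wild-type and 336627 to 417944 in Lgr6-null, with 15 of 15 called lower. Of 20 pan-mesenchymal genes 19 were tested, 6 called higher and 3 lower, and their summed level was 122579 to 128135 in wild-type and 130366 to 146447 in Lgr6-null. Of 8 plasma and B cell markers, 4 had values and 2 were tested, both called higher: Sdc1 with 27123 reads and Cd79b with 258 reads over all 8 libraries. Cd79a held 15 reads and Jchain 73 reads. Of the endothelial markers tested 1 of 4 was lower, and of the adipocyte markers 1 of 3. In bulk RNA, fewer cells of a type and less RNA per cell cannot be told apart, and the part of these shifts in the results below was not tested.

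Of the 38 genes, 37 passed the filter, which asks for 4 libraries with normalized counts of 10 or more. A gene was called when its limma p, adjusted by Benjamini-Hochberg over all 14294 genes tested, was under 0.05. Of these 37 genes, 15 were called lower in Lgr6-null (40.5%) and 0 higher; of all genes tested, 12.7% were called lower, 13.0% higher and 25.7% in either direction. The median log2 fold change (Lgr6-null minus wild-type) was -0.26 over the 37 genes and 0.00 over all genes tested. The genotypes did not overlap in the same 15 genes, and in 29.1% of all genes tested. At an unadjusted p under 0.05, 17 were lower and 0 higher, and both edgeR and DESeq2 on recovered reads called 15 lower and 0 higher. By role, 7 of 10 COPII and KDEL receptor genes were lower, and 0 of 11 ER chaperones and folding factors.

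**Figure D1:**
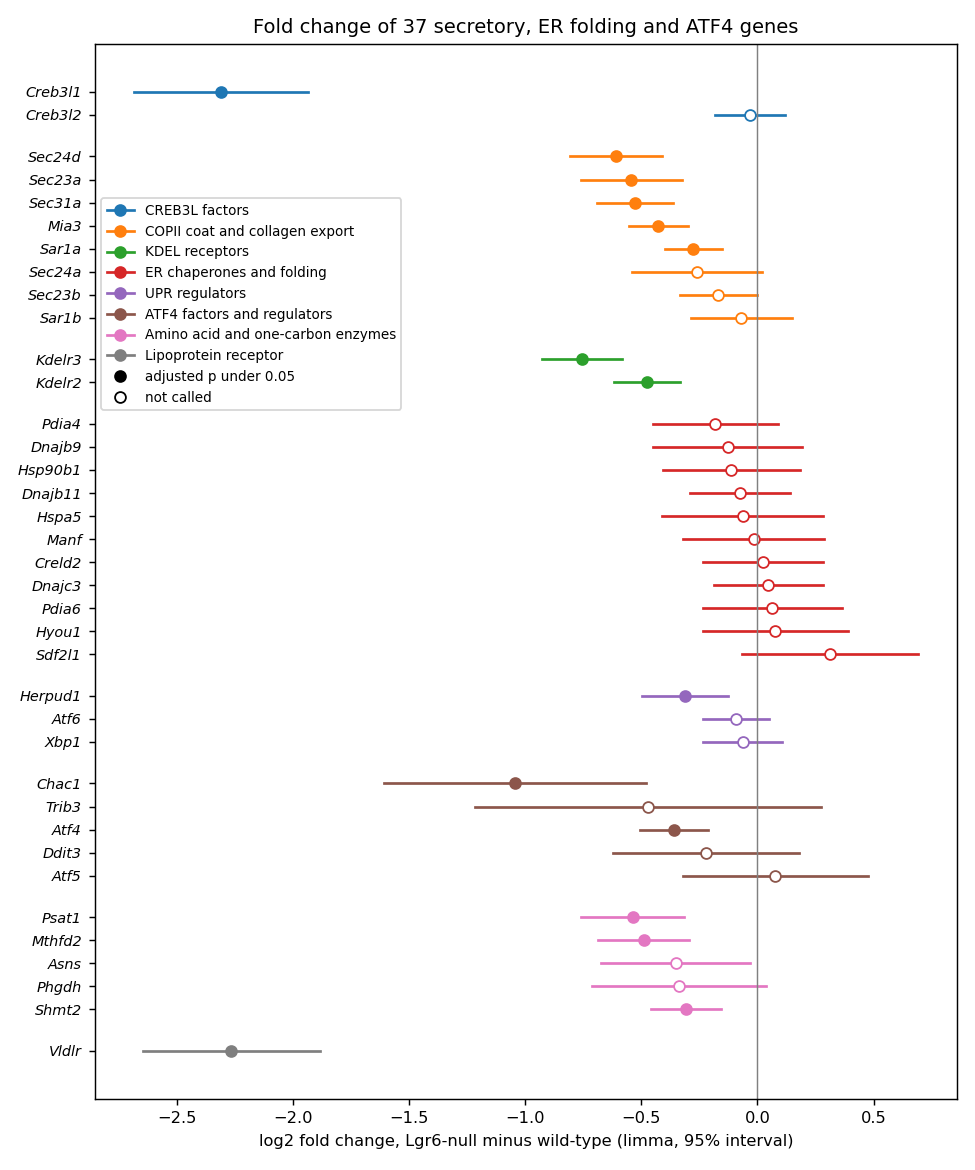
Log2 fold change of the 37 tested genes between Lgr6-null and wild-type cultures, with its 95% interval from limma, coloured by role. Filled points are the 15 genes with an adjusted p under 0.05, all to the left of 0; all 11 ER chaperones have open points with intervals across 0.

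Creb3l1 (ENSMUSG00000027230, chromosome 2), the CREB3L factor of osteoblasts, had the largest change of the 37 genes. Its normalized counts were 8553, 12482, 10028 and 10515 in wild-type, where the libraries are numbered M0 to M3, and 1907, 2946, 1891 and 1745 in Lgr6-null, where they are numbered M0, M2, M3 and M4. Every Lgr6-null library lay far below the lowest wild-type library. The wild-type mean of 10394 ± 1622 compared with 2122 ± 554 in Lgr6-null (SD, n = 4 each), a fitted difference of 4.96-fold (log2 fold change -2.31 with SE 0.17 and limma adjusted p = 2.27e-05).

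Its relative Creb3l2 was not called. Normalized counts of Creb3l2 were 1238, 1096, 1166 and 1161 in wild-type and 1200.0, 1201, 1041 and 1124 in Lgr6-null, in the same library order. The genotypes overlapped throughout, and the log2 fold change was -0.03 with a 95% interval from -0.18 to 0.12 (limma adjusted p = 0.783). Per kilobase of exon, the wild-type mean of Creb3l1 was 3993 and that of Creb3l2 was 160.0, so Creb3l1 was the more abundant of the pair; in Lgr6-null the same levels were 815 and 157. Other relatives, named after their values were seen, stand in the stress regulator list below. Creb3 was lower at -0.26 (limma adjusted p = 0.0105) and the scarcer Creb3l3 at -2.06 (limma adjusted p = 0.00169). Creb3l4 was not called (0.18, limma adjusted p = 0.789).

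The COPII coat buds carriers from the ER: the GTPases SAR1A and SAR1B recruit the inner coat of SEC23 and SEC24 proteins, SEC31A forms the outer cage, and MIA3 (TANGO1) loads large cargo such as procollagen. Of these 8 genes, 5 were lower in Lgr6-null and 0 higher, with a median log2 fold change of -0.35. Sec24d (ENSMUSG00000039234, chromosome 3), a cargo-binding subunit, stood at 4176, 4054, 4178 and 4033 normalized counts in wild-type and at 2859, 2854, 2209.9 and 2923 in Lgr6-null. The wild-type values lay within a narrow band and every Lgr6-null value lay under it, with M3 the lowest. Its mean fell from 4110.1 ± 77.2 to 2712 ± 336 (SD, n = 4 each; log2 fold change -0.61 with SE 0.09 and limma adjusted p = 0.00112).

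Sec23a, an inner coat subunit, was at 2641, 2824, 2526 and 2452 in wild-type and at 1955, 1847, 1455 and 1951 in Lgr6-null, a log2 fold change of -0.54 (with SE 0.10 and limma adjusted p = 0.00338). Sec31a was at 7411, 7494, 6761 and 7042 in wild-type and at 5228, 5226, 4418 and 5096 in Lgr6-null (log2 fold change -0.53, SE 0.07). In both genes Lgr6-null library M3 was again the lowest, and the genotypes did not overlap. Mia3 was at 3352, 3674, 3331 and 3399 in wild-type and at 2689, 2498, 2514 and 2528 in Lgr6-null, a log2 fold change of -0.43 (with SE 0.06 and limma adjusted p = 0.000640). Sar1a changed least of the 5, from 3877 ± 168 to 3199 ± 83.8 (log2 fold change -0.28, SE 0.05). The 3 others were not called: Sec23b at -0.17 (limma adjusted p = 0.132), Sec24a at -0.26 (limma adjusted p = 0.162) and Sar1b at -0.07 (limma adjusted p = 0.651), and in each the genotypes overlapped. Outside the members, and named after their values were seen, Sec24b and Sec24c were not called. They were at 0.11 (limma adjusted p = 0.286) and 0.06 (limma adjusted p = 0.415). Sec13, of the same list and likewise named after its value was seen, was lower at -0.40 (limma adjusted p = 0.00156). Of the 20 genes in that list, 10 were lower.

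KDEL receptors return chaperones that carry a C-terminal retrieval signal from the Golgi to the ER, and the members Kdelr2 and Kdelr3 were both lower. Kdelr3 (ENSMUSG00000010830, chromosome 15) was at 2052, 2159, 1887 and 2128 normalized counts in wild-type and at 1179, 1269, 1090.5 and 1346 in Lgr6-null. No Lgr6-null library came near the wild-type range, and the mean was 40.6% lower (log2 fold change -0.75 with SE 0.08 and limma adjusted p = 0.000146). Kdelr2 was at 2976, 3250.3, 2917 and 3237 in wild-type and at 2390.1, 2123, 2156 and 2239 in Lgr6-null, a log2 fold change of -0.47 (with SE 0.06 and limma adjusted p = 0.000675). Here too the genotypes were fully separate, with a smaller difference than in Kdelr3. Kdelr1, outside the members and named after its value was seen, was lower by less, at -0.16 (limma adjusted p = 0.0448).

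**Figure D2:**
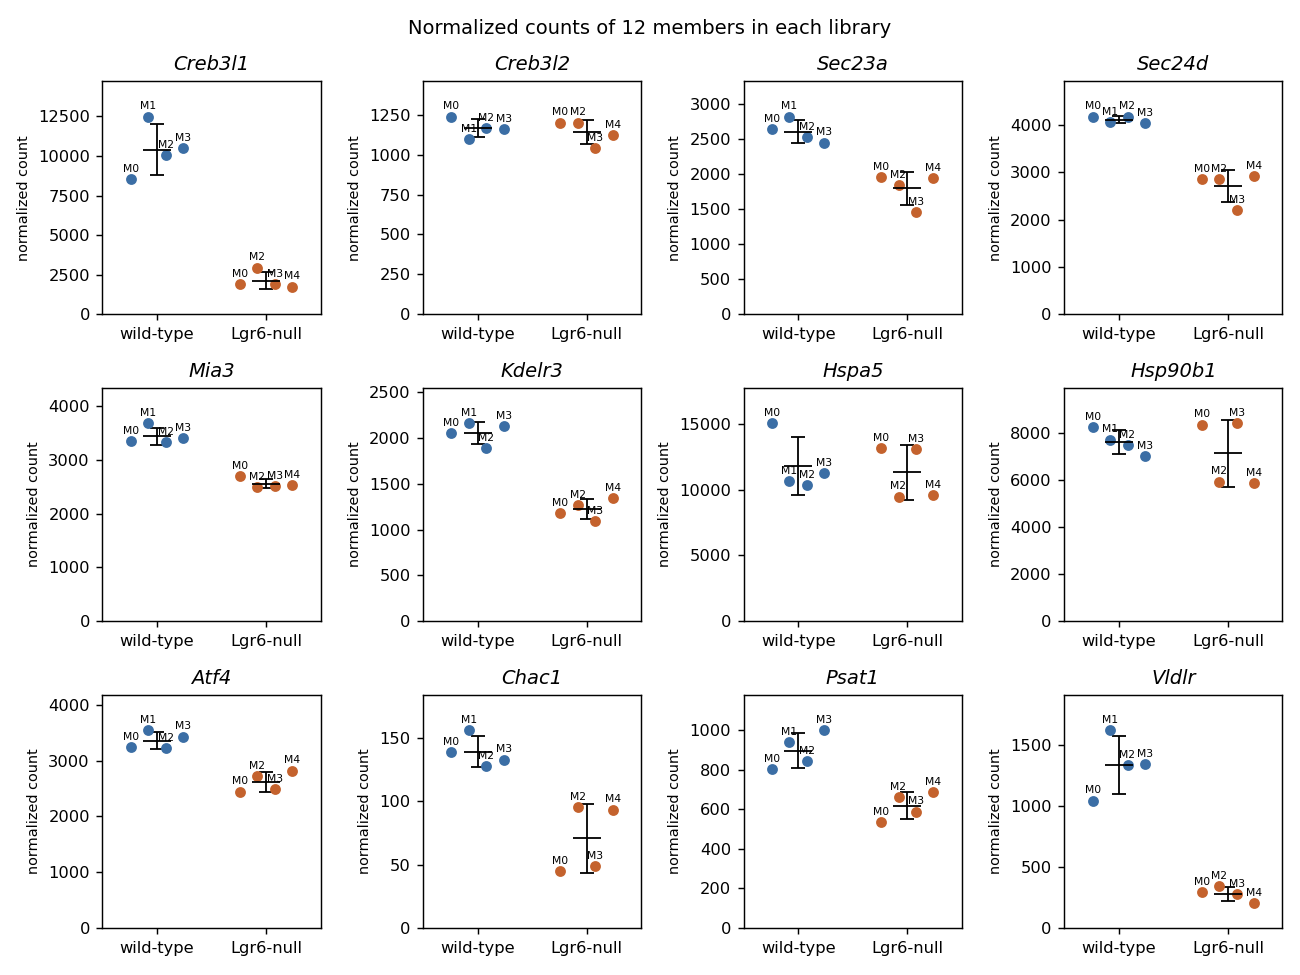
Normalized counts (vertical axes, each from 0) of 12 of the genes in each of the 4 wild-type and 4 Lgr6-null libraries; bars show the mean and SD of a genotype. Creb3l1 and Vldlr fall several-fold, Sec23a, Sec24d, Mia3 and Kdelr3 are lower with no overlap, and in Hspa5, Hsp90b1 and Chac1 the Lgr6-null libraries fall apart into M0 with M3 and M2 with M4.

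For 5 pairs of paralogs, the log2 ratio of the 2 genes within a library was compared between genotypes; such a ratio does not depend on how libraries were scaled. The pairs, and which gene is divided by which, were chosen with earlier results known, and that order sets the sign. In 4 of 5 pairs the ratios of the genotypes did not overlap. Creb3l1 over Creb3l2 went from a mean of 3.14 in wild-type to 0.86 in Lgr6-null, a difference of -2.28. Sec23a over Sec23b went from 1.24 to 0.87, a difference of -0.37. Sec24d over Sec24a was at 1.98, 2.01, 2.25 and 2.17 in the wild-type libraries and at 1.79, 1.69, 1.85 and 1.68 in the Lgr6-null libraries, a difference of means of -0.35. Kdelr3 over Kdelr2 went from -0.59 to -0.87, a difference of -0.28. Each of these 4 had a two-sided exact permutation p of 0.0286, the smallest that 4 against 4 libraries allow, and 0.0358 after Benjamini-Hochberg adjustment over 5 pairs. As the pairs were chosen with results of these data known, these p-values describe the separation and are not independent evidence. Sar1a over Sar1b had means of 2.33 and 2.12 and overlapped between genotypes (exact permutation p = 0.114, adjusted 0.114).

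**Figure D3:**
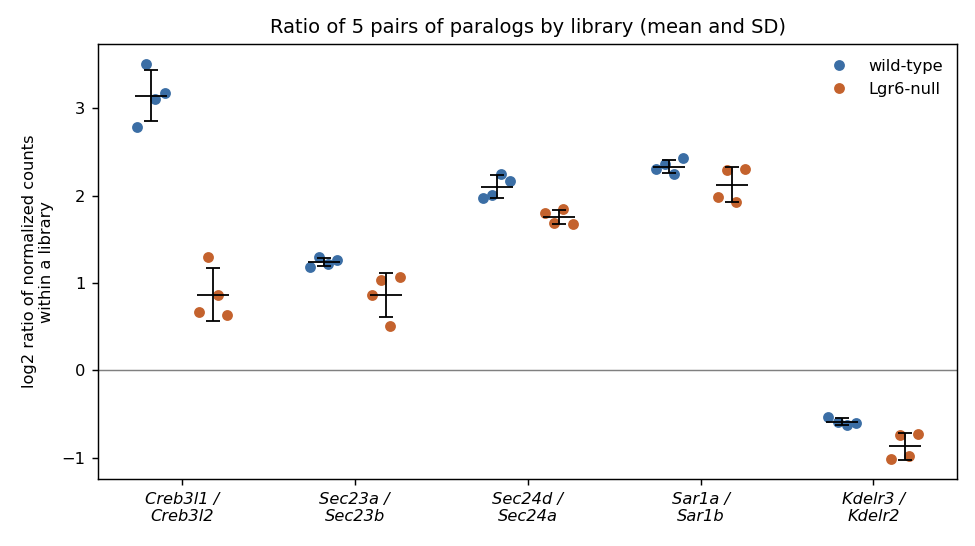
Log2 ratio of the normalized counts of 2 paralogs within each library (vertical axis) for 5 pairs, with mean and SD of each genotype. In 4 pairs all Lgr6-null points lie below all wild-type points, with differences of means from -2.28 to -0.28; for Sar1a over Sar1b the points overlap.

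RefSeq promoter windows from 250 bases before to 50 bases after the annotated start (mouse build GRCm38.p6) were available for 32 of the 38 genes, and not for Creb3l1, Kdelr2, Hyou1, Manf, Atf6 and Cth. They were searched on both strands for 5 motifs: the ER stress response element (ERSE, CCAAT, then 9 free bases, then CCACG), ERSE-II (ATTGG, 1 free base, CCACG), the core of the UPR element (UPRE, TGACGTGG), the element bound by ATF4 with CEBP partners (CARE, TTNCATCA) and the cyclic AMP response element (CRE, TGACGTCA). Only exact matches to these letters were counted, so near matches are left out, and no match overlapped another. UPRE matches stood in 3 windows, those of Sec23a, Sec24d and Kdelr3, while 0.714% of all genes with a window hold one. These 3 windows are printed because they share this match and the genes were all lower. Each sequence runs 5′ to 3′ on the gene's own strand, from 220 bases before the start through the first 20 bases of the transcript, with the UPRE match in capitals; in Kdelr3 the match is on the opposite strand. The match begins 26 bases before the start in Sec24d (chr3:123267276-123267515, plus strand), 30 bases before it in Kdelr3 (chr15:79516188-79516427, plus strand) and 6 bases after it in Sec23a (chr12:59011998-59012237, minus strand).
Sec24d: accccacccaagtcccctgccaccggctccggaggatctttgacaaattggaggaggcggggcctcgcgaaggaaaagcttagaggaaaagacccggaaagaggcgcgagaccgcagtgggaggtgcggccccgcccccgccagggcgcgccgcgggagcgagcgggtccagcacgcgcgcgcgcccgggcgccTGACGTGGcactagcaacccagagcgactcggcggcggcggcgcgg
Kdelr3: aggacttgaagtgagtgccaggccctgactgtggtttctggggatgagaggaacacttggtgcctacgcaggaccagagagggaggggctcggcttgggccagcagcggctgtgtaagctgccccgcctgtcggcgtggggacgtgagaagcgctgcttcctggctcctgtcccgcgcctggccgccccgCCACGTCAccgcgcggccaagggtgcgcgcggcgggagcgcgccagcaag
Sec23a: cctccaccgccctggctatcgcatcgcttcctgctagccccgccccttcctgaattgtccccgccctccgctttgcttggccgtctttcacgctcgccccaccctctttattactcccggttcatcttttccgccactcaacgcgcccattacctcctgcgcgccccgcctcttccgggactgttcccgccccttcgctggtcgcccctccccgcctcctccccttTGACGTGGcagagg

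No ER chaperone or folding factor among the members was called. Of these 11, 0 passed in either direction by limma, edgeR or DESeq2, and 0 had an unadjusted limma p under 0.05. Their median log2 fold change was -0.02, with 6 values below 0 and 5 above. This holds for the members only: in the list of 27 other ER folding proteins given below, 11 were lower. Hspa5 (ENSMUSG00000026864, chromosome 2), the chaperone BiP and the usual readout of the UPR, was at 15030.3, 10632, 10314 and 11249 in wild-type and at 13128, 9459, 13092 and 9573 in Lgr6-null. Wild-type library M0 was the highest of all 8, and the Lgr6-null values split into a pair inside the wild-type range (M0 and M3) and a pair just under it (M2 and M4). The log2 fold change was -0.06, with a 95% interval from -0.41 to 0.28, so these libraries leave room for a fall or a rise within those bounds.

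Hsp90b1, which encodes the ER chaperone GRP94, showed the same pairs, here above and below the wild-type range: 8258, 7738, 7515 and 7033 in wild-type against 8376, 5948, 8429 and 5884 in Lgr6-null. Sdf2l1, a partner of BiP, had the highest log2 fold change of the group, 0.31, with an interval from -0.07 to 0.69 (limma adjusted p = 0.213). Of the disulfide isomerases, the members Pdia4 and Pdia6 were at -0.18 and 0.06. Outside the members, and named after its value was seen, P4hb was lower at -0.51 (limma adjusted p = 0.00896). Pdia3 and Pdia5, in the same list as P4hb, were not called, at -0.07 and -0.16. The J-domain co-chaperones Dnajb9, Dnajb11 and Dnajc3 were at -0.13, -0.07 and 0.05. Hyou1, an exchange factor of BiP, was at 0.08, and the stress-induced secreted factors Creld2 and Manf were at 0.02 and -0.02.

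ERSE, the element through which ATF6 with NF-Y raises chaperones, was found in 5 member windows. All were of the chaperone and folding group: Hspa5, Hsp90b1 (at 2 places), Pdia6, Dnajc3 and Creld2. Of all genes with a window, 0.137% hold it. The window of Hspa5 (chr2:34771870-34772109, plus strand) is printed as the example, since it shows the element in a gene that was not called. It has the same extent and direction as those above, the outer parts of the element are in capitals, and the element begins 65 bases before the start.
Hspa5: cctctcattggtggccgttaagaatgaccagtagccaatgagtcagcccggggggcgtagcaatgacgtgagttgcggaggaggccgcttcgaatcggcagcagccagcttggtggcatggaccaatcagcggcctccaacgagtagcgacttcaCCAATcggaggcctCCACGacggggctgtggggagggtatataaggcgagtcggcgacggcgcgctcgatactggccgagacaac

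Among regulators of the UPR, Xbp1 and Atf6, the transcription factors of the IRE1 and ATF6 branches, were not called, at -0.06 (95% interval -0.23 to 0.11) and -0.09 (95% interval -0.24 to 0.05). The table gives counts per gene and so cannot show the splicing of Xbp1. Herpud1 (ENSMUSG00000031770, chromosome 8), which helps remove misfolded ER proteins, was at 1491, 1385, 1178 and 1303 in wild-type and at 1005, 1166, 1034 and 1099.7 in Lgr6-null. The genotypes were separate only by the narrow gap between wild-type M2 and Lgr6-null M2. The log2 fold change was -0.31 (with SE 0.08 and limma adjusted p = 0.0206), and the call was lost without wild-type M0 (limma adjusted p = 0.0510), without wild-type M1 (limma adjusted p = 0.0606), without Lgr6-null M0 (limma adjusted p = 0.0614) and with libraries scaled to the same total (limma adjusted p = 0.125).

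ATF4 branch genes were lower in part. Atf4 (ENSMUSG00000042406, chromosome 15) was at 3243, 3549, 3228 and 3432 in wild-type and at 2445, 2729.6, 2495 and 2824 in Lgr6-null. The groups did not overlap, and the mean fell from 3363 ± 155 to 2623 ± 182 (SD, n = 4 each; log2 fold change -0.36 with SE 0.07 and limma adjusted p = 0.00368). ATF4 protein is governed largely by translation, which RNA counts do not show. Chac1, a glutathione-degrading enzyme induced by ATF4, was at 139, 156, 128 and 133 in wild-type and at 45.1, 95.5, 49.1 and 93.5 in Lgr6-null, a log2 fold change of -1.04 (with SE 0.25 and limma adjusted p = 0.0140). All 4 Lgr6-null values lay under the wild-type range, M0 and M3 at about the same low level and M2 and M4 closer to wild-type.

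The 3 other regulators were not called. Trib3, a pseudokinase that restrains ATF4, was at 209.6, 158, 149 and 157 in wild-type and at 67.6, 182, 83.3 and 202 in Lgr6-null. Lgr6-null M0 and M3 were below every wild-type library, while M2 and M4 lay within the wild-type range (log2 fold change -0.47, 95% interval -1.22 to 0.27). Ddit3, which encodes the factor CHOP, was at 375, 280.2, 279 and 313 in wild-type and at 212, 357, 214 and 305 in Lgr6-null (log2 fold change -0.22, limma adjusted p = 0.416). Atf5, a relative of ATF4, was at 2287, 1807, 1867 and 1984 in wild-type and at 1626, 2696, 1631 and 2656 in Lgr6-null (log2 fold change 0.08, limma adjusted p = 0.795). In Atf5, Lgr6-null M2 and M4 exceeded every wild-type library and M0 and M3 fell short of every one.

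Of 6 enzyme genes that ATF4 regulates, 5 were tested and 3 were lower. Psat1, of serine synthesis, was at 801, 939, 843 and 999 in wild-type and at 535, 661, 588 and 685 in Lgr6-null, a log2 fold change of -0.54 (with SE 0.10 and limma adjusted p = 0.00380). The mitochondrial folate enzyme Mthfd2 was at 627, 674, 598 and 657 in wild-type and at 442, 502, 395 and 487 in Lgr6-null (log2 fold change -0.49, SE 0.09). Both genes were separate between genotypes, with Lgr6-null M0 and M3 lowest. Shmt2, the mitochondrial serine hydroxymethyltransferase, went from 1501 ± 117 to 1210.4 ± 29.5 (log2 fold change -0.31 with SE 0.07 and limma adjusted p = 0.00849). Asparagine synthetase, Asns, at -0.35 (limma adjusted p = 0.103) and Phgdh, which begins serine synthesis, at -0.34 (limma adjusted p = 0.173) were not called. With libraries scaled to pan-mesenchymal genes, a scaling that shifts all genes to a median of -0.18 on the log2 scale, Asns was called at -0.53 (limma adjusted p = 0.0293). Cth, which makes cysteine from cystathionine, did not pass the filter, with 2, 2, 5 and 5 reads in wild-type and 7, 11, 8 and 4 in Lgr6-null.

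Vldlr (ENSMUSG00000024924, chromosome 19), a lipoprotein receptor that ATF4 raises in mouse liver, was at 1045, 1625, 1341 and 1344 in wild-type and at 294, 342, 279 and 202 in Lgr6-null. All Lgr6-null libraries were several-fold below the lowest wild-type library. The mean went from 1339 ± 237 to 279 ± 57.8, a fitted difference of 4.81-fold (log2 fold change -2.27 with SE 0.17 and limma adjusted p = 2.73e-05). Among the 37 genes it came next after Creb3l1 in size.

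CARE matches stood in the windows of Herpud1, Trib3, Chac1, Asns and Vldlr, and in 4.51% of all genes with a window. Herpud1 also held ERSE-II, as did Dnajb11, against 0.0444% of all genes with a window; CRE was in 0 of 32 member windows and in 2.03% of all. Windows of Herpud1 (chr8:94386209-94386448, plus strand), Chac1 (chr2:119351022-119351261, plus strand) and Asns (chr6:7693190-7693429, minus strand) are printed as examples of CARE matches. Chac1 was called lower at -1.04 and Herpud1 at -0.31, while Asns was not called at -0.35. Herpud1 and Asns thus differ in the call and not in the size of the fall. Capitals mark the fixed letters of CARE, and in Herpud1 also those of ERSE-II, which lies nearer to the start; in Asns the CARE match is on the opposite strand. A match is a run of letters and not evidence of binding in these cells.
Herpud1: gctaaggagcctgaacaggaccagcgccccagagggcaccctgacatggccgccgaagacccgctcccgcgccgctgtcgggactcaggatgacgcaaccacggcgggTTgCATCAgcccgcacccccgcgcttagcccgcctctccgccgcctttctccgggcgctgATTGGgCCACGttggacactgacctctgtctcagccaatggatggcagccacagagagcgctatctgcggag
Chac1: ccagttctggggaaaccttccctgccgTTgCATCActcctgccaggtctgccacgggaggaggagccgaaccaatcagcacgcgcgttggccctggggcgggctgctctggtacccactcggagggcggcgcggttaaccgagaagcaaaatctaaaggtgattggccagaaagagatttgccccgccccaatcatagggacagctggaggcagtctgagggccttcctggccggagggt
Asns: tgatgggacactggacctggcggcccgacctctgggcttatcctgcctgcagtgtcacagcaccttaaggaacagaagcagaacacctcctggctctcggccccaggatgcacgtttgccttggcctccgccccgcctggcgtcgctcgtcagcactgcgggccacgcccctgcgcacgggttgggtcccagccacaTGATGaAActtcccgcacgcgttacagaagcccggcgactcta

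The values per library showed an order within the Lgr6-null group that was noted after they were seen. In all 11 chaperones, Lgr6-null M0 and M3 both lay above M2 and M4; the same order held in 26.5% of all genes tested. In all 5 ATF4 factors and regulators and in 4 of 5 enzymes, M0 and M3 both lay below M2 and M4, an order found in 22.4% of all genes tested. Shmt2 was the exception, with M0 and M3 at 1237 and 1231 and M2 and M4 at 1173 and 1201. In wild-type, M0 was the highest library in 11 of 11 chaperones, and in 27.5% of all genes tested. The SD of the log2 values was larger in Lgr6-null than in wild-type in 31 of the 37 genes (83.8%), and in 62.9% of all genes tested. The summed macrophage markers were also higher in Lgr6-null M0 (551969) and M3 (656370) than in M2 (443330) and M4 (438024). Wild-type M0 had the lowest sum of its group (295298), of which Lyz2 alone made up 154682. By the mean log2 level of the same markers, wild-type M1 was lowest (12.60) and M0 next (12.61). The share of reads in mitochondrially encoded genes was 2.04% and 1.98% in Lgr6-null M0 and M3, and 1.74% and 1.62% in M2 and M4. In wild-type it was 1.39% to 1.66%, so that all Lgr6-null libraries but M4 were above the wild-type range. The part of these differences in the order was not tested.

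**Figure D4:**
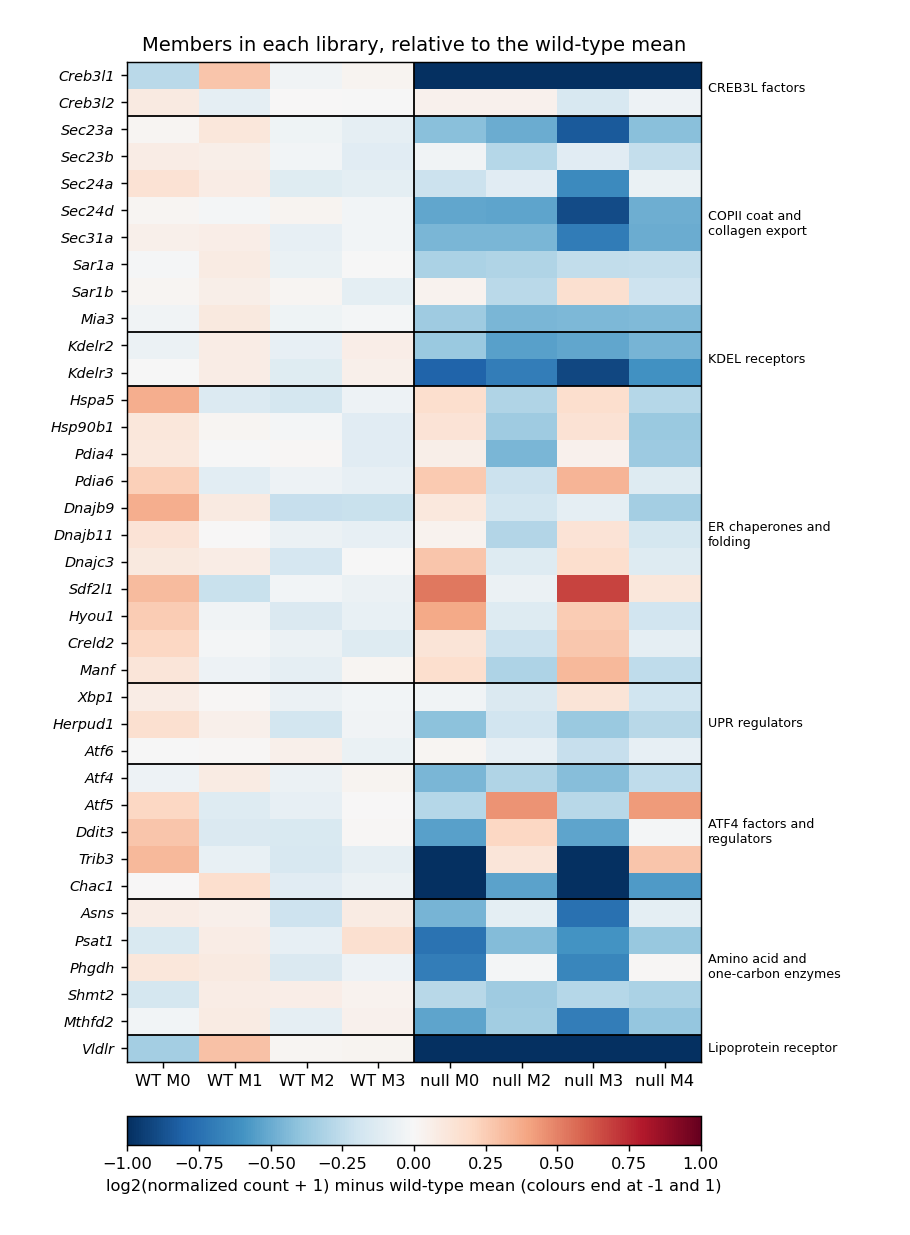
Each row is 1 of the 37 tested genes and each column 1 of the 8 libraries; colour gives log2(normalized count + 1) minus the wild-type mean of the gene, ending at -1 and 1. Creb3l1, Vldlr, the KDEL receptors and the 5 COPII genes called lower are blue in all 4 Lgr6-null columns. Chaperones are redder in null M0 and M3, and ATF4 factors bluer in the same 2 libraries.

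Other genes of the same pathways were counted in 9 lists written from general knowledge, none of them holding a member. Of 176 genes tested, 71 were lower (40.3%) and 3 higher, beside 12.7% lower and 13.0% higher over all genes tested, with a median log2 fold change of -0.15. With libraries scaled to the same total, 47 were lower and 17 higher, where 1281 of all genes were lower and 2892 higher. Over the 5 lists of import, folding and transport, 49 of 101 genes were lower and 0 higher by limma; at an unadjusted p under 0.05, 58 were lower and 4 higher, and edgeR and DESeq2 each called 1 higher.

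Lists of import and transport were lower in part. Of 20 other COPII genes, 10 were lower, with a median of -0.20; Sec16b, a scaffold of ER exit sites, went from 364 ± 35.7 to 105 ± 14.9 normalized counts (SD, n = 4 each; log2 fold change -1.78 with SE 0.13 and limma adjusted p = 2.04e-05). Of 14 genes of COPI and KDEL retrieval, which bring proteins back to the ER, 8 were lower, with a median of -0.19 and Copz2, a coat subunit, at -0.41; with the same total in each library 3 of the 14 were lower. Among 25 genes of the translocon and signal peptide processing, 10 were lower, with a median of -0.19; Ssr2, of the translocon-associated complex, went from 2222 ± 179.9 to 1504 ± 65.5 (log2 fold change -0.56, SE 0.07).

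N-glycosylation had the highest share of lower genes of the 9 lists, 10 of 15 (66.7%), with a median of -0.31. Ostc, a subunit of the oligosaccharyltransferase, went from 2628 ± 58.6 to 1716 ± 177 (log2 fold change -0.62 with SE 0.08 and limma adjusted p = 0.000395). Among 27 other ER folding proteins, 11 were lower, with a median of -0.14. The prolyl isomerase Fkbp7 went from 1446 ± 86.1 to 529.6 ± 64.2 (log2 fold change -1.45, SE 0.09). Named after their values were seen, 4 of its 5 relatives in the list were also lower: Fkbp10, which acts on procollagen (-1.21), Fkbp11 (-1.61), Fkbp9 (-0.67) and Fkbp14 (-0.35). Fkbp2 was not called (0.12, limma adjusted p = 0.603). Whether this list differs from the 11 chaperones above was not tested.

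In the lists of degradation and of stress regulators, 11.8% and 26.3% of genes were lower, beside 12.7% of all genes tested, so the share of the degradation list was near the background. Among 17 genes of ER-associated degradation, 2 were lower and the median was -0.01, with the lectin Erlec1 at -0.55 (SE 0.07). Among 19 stress sensors, proteases and eIF2 regulators, 5 were lower and 1 higher, with a median of -0.09. The stress factor Nupr1 was at -0.67 (SE 0.10), and the kinase Eif2ak2, which answers double-stranded RNA, was higher at 0.36 (SE 0.10, limma adjusted p = 0.0211), a call lost with scaling to pan-mesenchymal genes (0.18) and without wild-type M1 (0.32).

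Among 20 other ATF4 targets, 8 were lower and 2 higher, with a median of -0.30. The proline synthesis enzyme Pycr1 went from 432 ± 27.3 to 188 ± 9.51 (SD, n = 4 each; log2 fold change -1.20 with SE 0.08 and limma adjusted p = 1.69e-05). In the other direction, the cystine transporter Slc7a11 was at 194, 100.4, 128 and 133 in wild-type and at 673, 413, 478 and 379.9 in Lgr6-null. All its Lgr6-null libraries exceeded all wild-type libraries, and the mean was 3.49-fold higher on the fitted scale (log2 fold change 1.81 with SE 0.22 and limma adjusted p = 0.000409). The other higher gene was Jdp2, named after its value was seen, at 0.45 (SE 0.10), a call lost with scaling to pan-mesenchymal genes (0.27, limma adjusted p = 0.232). Of 19 cytosolic tRNA synthetases, 7 were lower, with a median of -0.14 and Eprs, which charges glutamate and proline tRNAs, at -0.49 (SE 0.07).

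**Figure D5:**
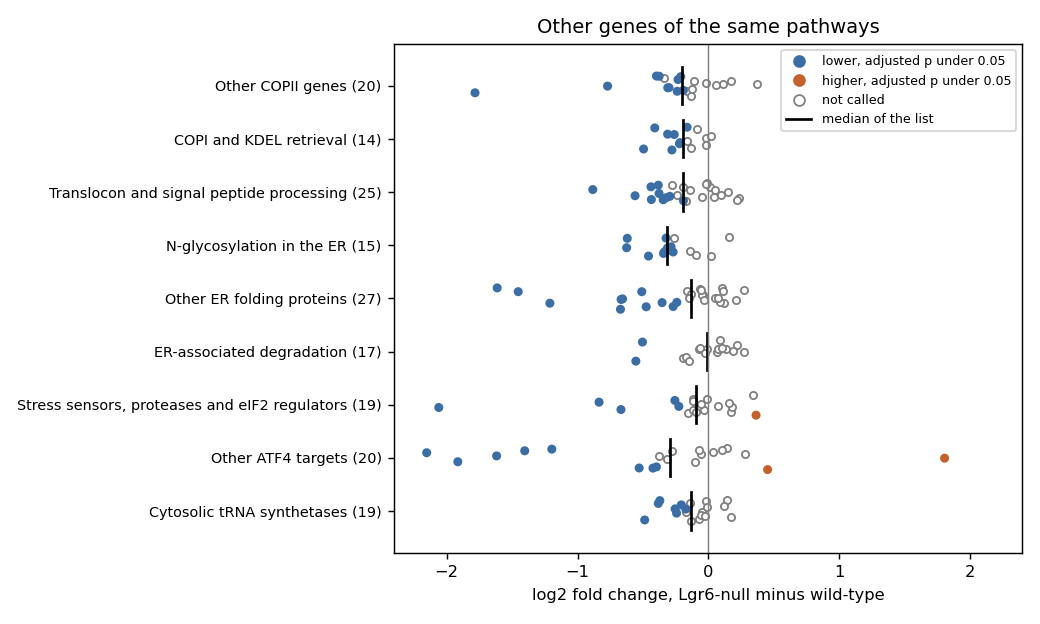
Log2 fold change (horizontal axis) of the genes of 9 pathway lists, with the number tested in brackets; blue points were called lower, orange points higher, open points were not called, and the black bar is the median of a list. N-glycosylation has the lowest median (-0.31), ER-associated degradation the one nearest 0 (-0.01), and Slc7a11 lies apart at 1.81 among other ATF4 targets.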

How the data were processed

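Polyadenylated RNA was read as 100 bp paired ends from a stranded kit, per the labels' protocols. Per the submitters' processing notes, HISAT2 2.1.1, HTSeq 0.13.5, DESeq2 and build GRCm39 were used. For the annotation, the strand setting and reads with several matches, the method is not given in the sources used, so overlapping genes may share reads. The deposited values are a signal: normalized counts of 19460 genes, in which 100% of values were whole reads (tolerance 0.01 read) times 1 factor per library. No per-sample column was left unused (0). Symbols and exon lengths came from a GENCODE annotation of GRCm38 by gene identifier (19361 matched, 99 not). The numbers in the column names (M0 to M4) match no replicate number of a title with certainty, and columns were placed in genotypes alone. No library was a copy of another.

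Genotypes were compared with limma 3.58.1 (R 4.3.3), mean-variance trend, on log2(normalized count + 1), which understates changes of low genes. Genes with at least 10 in at least 4 of 8 libraries were tested, 14294 in all. Alternatives were no filter, a minimum mean of 50, pseudocounts of 0.5 and 5, 2 other scalings, edgeR 4.0.16 and DESeq2 1.42.0 on recovered reads, a block by column number, and leaving out each library. The fit was tested on simulated data with 200 changed genes. The members and lists were chosen with earlier results of these data known. Genes named are all members, Lgr6, and from each pathway list the called gene with the smallest p in each direction; exceptions are stated. Levels per kilobase divide normalized counts by exon length. Promoter windows are RefSeq's on GRCm38.p6, not the build of the counts.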

Additional observations from a re-analysis of the deposited data

Results flagged for a closer look

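In 8 of 100 sets of 4 libraries (50 genes in 2 genotypes), 1 library stood apart from the other 3 by Dixon's 95% criterion, which chance meets in about 1 of 20 sets. In Lgr6-null, Creb3l1 was high in M2 (2946.5 normalized counts, others 1745 to 1907) and Mia3 in M0 (2689, others 2498 to 2528). Lgr6-null M3 was low in Sec24d (2209.9, others 2854 to 2923) and Sec31a (4418, others 5096 to 5228). In wild-type, M0 was high in Pdia6 (4149.7, others 3264 to 3393) and Trib3 (209.6, others 149 to 158) and low in Shmt2 (1327, others 1538 to 1575). Wild-type M2 was low in Asns (1017, others 1217 to 1239). Creb3l1, Sec24d, Sec31a, Mia3 and Shmt2 were called lower without the library concerned, and Pdia6, Trib3 and Asns were not called without it.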

How the results depend on the processing

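Under 17 alternatives the number of the 38 genes called lower ran from 12 to 16 (15 as reported) and the number called higher was 0. Of the 15, 12 were called lower under every alternative, and the exceptions were Sar1a, Herpud1 and Shmt2; of 22 not called, Asns alone was called under any. With 1 library left out, 14 to 15 were lower. Of the other pathway genes, 71 were lower and 3 higher as reported. Scaling to the same total gave 47 and 17, scaling to pan-mesenchymal genes left 1 higher and DESeq2 called 5 higher; with 1 library left out, 59 to 73 were lower and 2 to 6 higher. Over all genes, 2892 were higher and 1281 lower with the same total, and 709 and 2353 with pan-mesenchymal scaling. Beyond the scale factor itself, the cause was not tested.

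Column numbers did not pair the libraries: correlations of same-numbered deviations were -0.0096, -0.117 and 0.0267. With the number as a replicate block, 12 of the 38 genes were lower and 0 higher, 34 pathway genes were lower and 1 higher, and 1021 of all genes were lower and 937 higher; Sar1a, Herpud1, Shmt2, Eif2ak2 and Jdp2 were not called.

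Signs turned in 12 genes, none called, at most 0.16 from 0 on the log2 scale. With the same total, Creb3l2 was at 0.062, Sar1b at 0.023, Hspa5 at 0.030, Dnajb11 at 0.019, Manf at 0.078, Xbp1 at 0.030 and Atf6 at 0.00077. With pan-mesenchymal scaling, Pdia6 was at -0.12, Dnajc3 at -0.13, Hyou1 at -0.10, Creld2 at -0.16 and Atf5 at -0.10. Manf was at 0.018 by edgeR, 0.010 by DESeq2 and 0.045 with the block, and Atf5 at -0.081 with the block. With 1 library left out, Creb3l2 ran from -0.060 to 0.013, Hspa5 from -0.14 to 0.059, Pdia6 from -0.026 to 0.16, Dnajc3 from -0.029 to 0.11, Hyou1 from -0.023 to 0.17, Creld2 from -0.061 to 0.10, Manf from -0.13 to 0.081 and Atf5 from -0.045 to 0.20. Depth limits Cth, with 14 and 30 reads per genotype.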
